A study of Mus musculus with 9 samples.

Results

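Genes of glycolysis and of the response to low oxygen were followed in the developing mouse face, in orofacial tissue that gives rise to lips, jaws and palate. The genes were taken by name (Ndrg1, Aldoa, Aldoc, Slc2a1, Vegfa, Ldha, Pgk1, Hk2, Bnip3 and Eno1), and every probe set whose array annotation gave exactly 1 of these symbols was used. This gave 12 probe sets of 9 genes, out of 10833 probe sets with 1 symbol, which stand for 8251 genes. Eno1 had no such probe set and was not analysed here. Total RNA was hybridized to 9 one-colour oligonucleotide arrays, 3 each for gestation days (GD) 12, 13 and 14. The labels name no strain, genotype or treatment for any day, and do not tie the 3 arrays of a day to litters, embryos or pools, so p-values measure only the spread between these samples, which may be technical.

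Glycolysis splits glucose to pyruvate in the cytosol and yields ATP without oxygen, and lactate dehydrogenase then turns pyruvate to lactate. When oxygen is low, HIF1A escapes degradation that is started by prolyl hydroxylases and the VHL protein, pairs with ARNT to form the transcription factor HIF1, and binds short DNA motifs near target genes. The textbook targets include glucose transporters, most glycolytic enzymes, the vessel growth factor VEGFA and the mitochondrial protein BNIP3. Growing embryonic tissues use glycolysis widely even where oxygen is not scarce.

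The core of the HIF binding motif, ACGTG or GCGTG, was searched on both strands in the RefSeq promoter windows (GRCm38.p6), which run from 250 bases before to 50 bases after an annotated gene start. Overlapping matches were counted as 1 site; CACGTG, the E-box, contains the core on both strands. Of the members, Slc2a1, Hk2, Ldha, Aldoa, Bnip3, Aldoc, Vegfa and Pgk1 matched 13 windows in all, and each of these 8 genes had a core in at least 1 of its windows. Of all 27025 genes with a window, 46.7% had one, and of all 32851 windows of this length, 43.8% had one, against 11 of the 13 member windows. The windows of the most upstream starts of Aldoa and Vegfa had 0 cores, and the cores of these genes lay in windows of later starts. The other Aldoa windows overlapped and held the same site, so the member windows are not all separate. The 250 bases before the start are printed for Ldha and Pgk1, whose signals were high on the same arrays, and for Aldoc, which was higher on GD14 than on GD12. Each is the window of the gene's most upstream start, on the plus strand, with the cores in capitals: Ldha at chr7:46845554-46845803, Pgk1 at chrX:106186850-106187099 and Aldoc at chr11:78322823-78323072.
Ldha: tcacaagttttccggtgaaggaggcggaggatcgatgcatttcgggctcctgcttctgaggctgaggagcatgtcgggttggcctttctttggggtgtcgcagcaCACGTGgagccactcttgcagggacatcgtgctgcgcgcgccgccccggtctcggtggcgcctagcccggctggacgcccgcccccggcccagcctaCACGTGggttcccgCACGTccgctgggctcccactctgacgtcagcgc
Pgk1: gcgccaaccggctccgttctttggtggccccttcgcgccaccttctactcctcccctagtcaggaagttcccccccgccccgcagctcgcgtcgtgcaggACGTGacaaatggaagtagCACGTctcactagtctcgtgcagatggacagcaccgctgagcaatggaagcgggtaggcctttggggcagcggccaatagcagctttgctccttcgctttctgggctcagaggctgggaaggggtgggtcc
Aldoc: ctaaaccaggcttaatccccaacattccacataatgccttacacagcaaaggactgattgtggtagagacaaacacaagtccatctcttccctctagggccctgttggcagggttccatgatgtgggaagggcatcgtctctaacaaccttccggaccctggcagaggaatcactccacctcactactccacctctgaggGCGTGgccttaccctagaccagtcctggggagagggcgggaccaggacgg
The printed sites of Ldha began 145, 48 and 34 bases before the start, those of Pgk1 150 and 131 bases before it, and that of Aldoc 50 bases before it. With the 50 bases after the start, which are not printed, these windows held 5 sites for Ldha, 2 for Pgk1 and 3 for Aldoc. A match is a string of letters only, and no binding was measured here.

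Intensities are the deposited linear values, scaled to a common level (a trimmed mean of 150.1 after dropping 2% of values at either end); array medians lay between 47.15 and 56.95. The third array of each day stood apart in signs of RNA or labelling quality. Its 3' to 5' ratio of the actin control was 1.42 on GD12, 1.25 on GD13 and 1.37 on GD14, where the other arrays had 1.54 and 1.76, 2.09 and 2.23, and 2.44 and 2.29. Some neuronal markers also set it apart. Stmn2 had 276 on the third array of GD12, 216.5 on GD13 and 188 on GD14. The other arrays had 795 and 765.5, 445 and 449, and 434 and 452. Not every neuronal marker did so: Tubb3 on GD14 had 761 on the third array against 680 and 546. The part of tissue content in the third arrays was not tested. Of 15 measured markers of orofacial mesenchyme, 14 were above an intensity of 10.4 on every array, the level below which probe sets were not tested, and the summed signal of the 15 was 6541 to 6777 on GD12 and 5164 to 5649 on GD14. The summed marker signal of other cell types differed by day without overlap for oral epithelium (1356 to 1648 on GD12, 3383 to 3823 on GD14), bone (1008 to 1383 and 8055 to 9771), skeletal muscle (1131 to 1401 and 2362 to 3599), leukocytes (336 to 450.0 and 695 to 821), cartilage (846 to 1032 and 1172 to 1860), endothelium (1436 to 1507 and 1687 to 1821) and red cells (22584 to 28812 and 14748 to 18600). The red cell sum mixed globin genes of opposite courses. Of 9 tested red cell markers 1 rose from GD12 to GD14 (Hbb-b2) and 3 fell (Hba-x, Hbb-bh1 and Hbb-y). Hba-a1 had 7004, 6840 and 8769 on GD12 and 7554.5, 6899 and 9674.5 on GD14. The cartilage sum was mixed too. Col11a1 had 332, 300 and 255 on GD12 and 889, 886 and 654 on GD14, while Col9a1 had 226, 249.9 and 239 on GD12 and 144, 175 and 105 on GD14. Of 9 tested cartilage markers 2 rose and 0 fell in limma, and 4 of 10 measured were above 10.4 on every array.

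**Figure D1:**
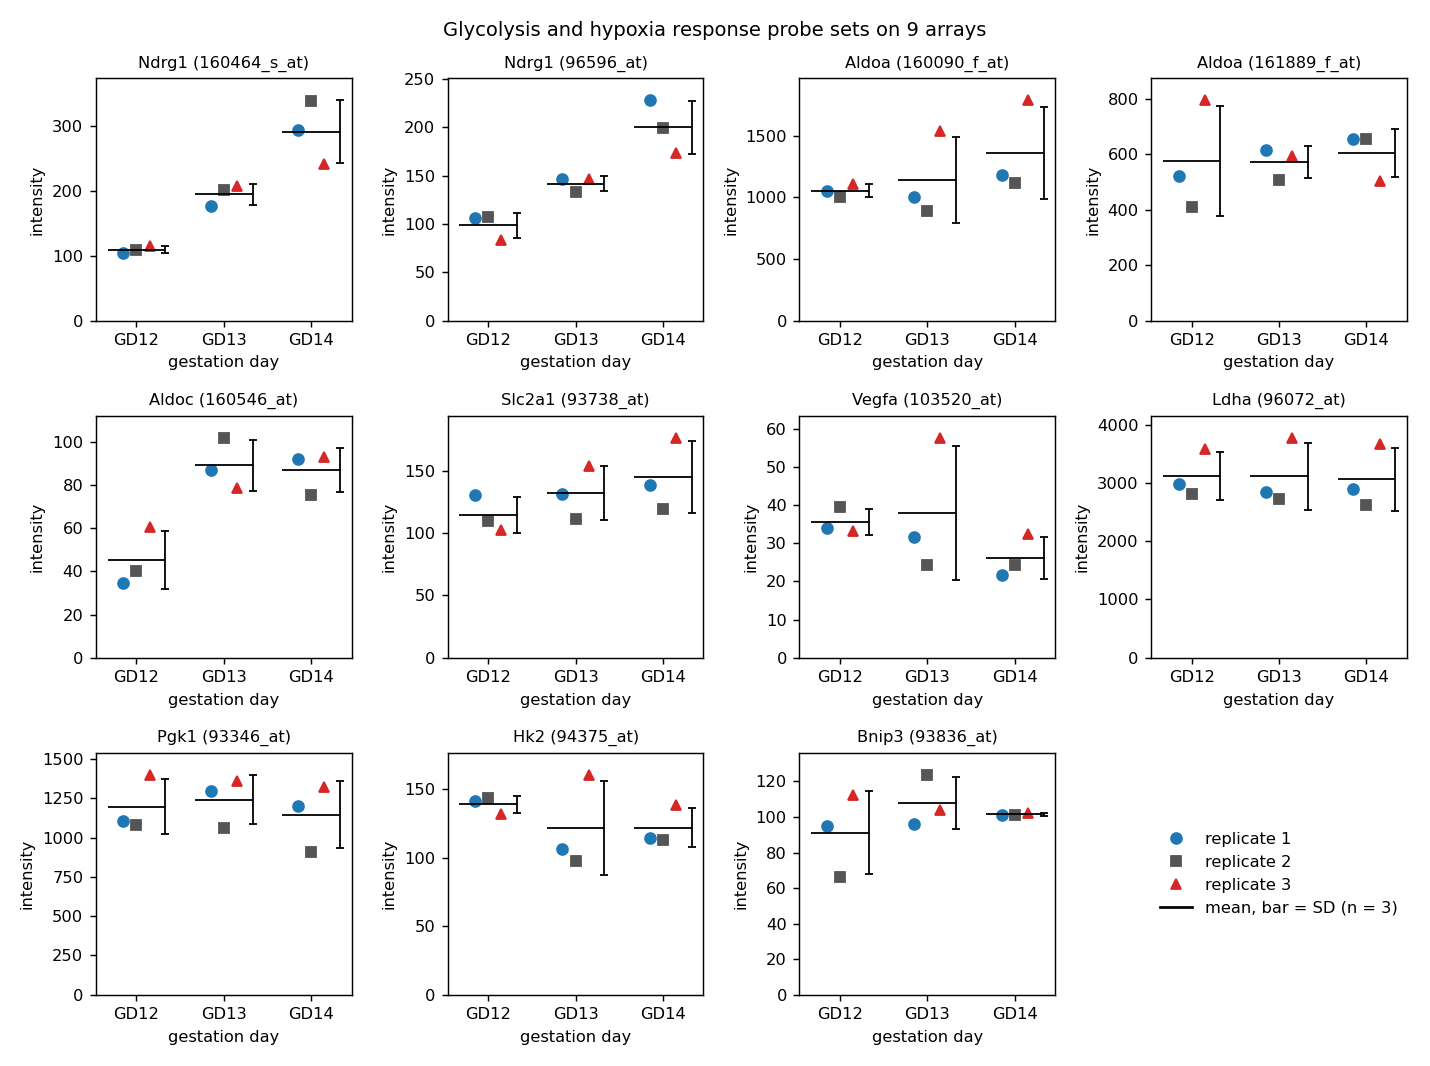
Intensity (linear, from 0) of the 11 tested probe sets on each array by gestation day, with symbols for the replicate numbers of the titles, a line for the mean of 3 arrays and a bar for the SD. The 3 days of both Ndrg1 probe sets do not overlap, and the third arrays (triangles) are the highest of each day for Ldha, Pgk1 and Aldoa 160090_f_at.

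Of the members, Ndrg1 had the clearest course, and both of its probe sets rose from GD12 to GD14. Ndrg1 encodes a cytosolic protein of differentiating and stressed cells that low oxygen and several hormones induce. The probe set 160464_s_at had intensities of 104, 109 and 116 on GD12, 177, 201 and 208 on GD13, then 294, 338 and 242 on GD14. The probe set 96596_at had 106, 107 and 83.8 on GD12, 146, 133 and 147 on GD13, then 228, 199 and 173 on GD14. In both, every array of a later day was above every array of an earlier day, as was the case for 10.1% of all tested probe sets from GD12 to GD13, 7.13% from GD13 to GD14 and 12.1% from GD12 to GD14. The _s_at ending marks probes that several transcripts may share. From GD12 to GD14 the means went from 109 ± 5.61 to 291 ± 48.0 (SD, n = 3 each) for 160464_s_at, a 2.60-fold rise with a 95% interval of 2.01 to 3.36, and from 98.8 ± 13.0 to 200.3 ± 27.3 (SD, n = 3 each) for 96596_at, a 1.996-fold rise with an interval of 1.54 to 2.59. Their log2 differences were 1.38 (SE 0.16) and 0.997 (SE 0.17), with limma adjusted p = 0.00263 and 0.0123 over all 9316 tested probe sets. The probe set 160464_s_at held its call in all 21 alternatives tried. The call of 96596_at ended without GD14 replicate 1 (adjusted p = 0.059) and with only the GD12 and GD14 arrays in the model (adjusted p = 0.0513).

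Ndrg1 did not pass for either single day. From GD12 to GD13 the log2 differences were 0.81 (95% interval 0.44 to 1.19, adjusted p = 0.0782) and 0.52 (0.14 to 0.89, adjusted p = 0.272), and from GD13 to GD14 they were 0.56 (0.19 to 0.94, adjusted p = 0.400) and 0.48 (0.10 to 0.86, adjusted p = 0.520). The second step minus the first was -0.25 and -0.03 (adjusted p = 0.971 and 0.995). With the arrays of replicate numbers 1, 2 and 3 compared within their number, the rise of 160464_s_at from GD12 to GD14 was 1.47, 1.61 and 1.05 on the log2 scale, and that of 96596_at was 1.09, 0.88 and 1.02. Without the third array of every day, a comparison added after the data were seen, it was 1.54 (adjusted p = 0.0203) and 0.98 (adjusted p = 0.0421). With the actin ratio as a covariate it was 1.33 (adjusted p = 0.00735) and 0.93 (adjusted p = 0.0243).

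Ndrg1 is made by epithelium and by Schwann cells, among others. Of 12 tested epithelial markers 6 rose and 0 fell from GD12 to GD14, while of 7 tested markers of glia and Schwann cells 0 passed in limma (3 at an unadjusted p under 0.05) and their summed signal went from 1026 to 1513 on GD12 to 743 to 1152 on GD14. This sum mixed opposite courses. Fabp7, the brightest of these markers on GD12, had 799, 771 and 467 on GD12 and 324, 247 and 96.9 on GD14. Pmp22 went the other way, with 213, 182 and 139 on GD12 and 434, 382 and 256.5 on GD14. No marker of either list was listed at 0, but this does not mean that all were readable. Of 15 measured epithelial markers, 11 were above the filter intensity on every array, as were 6 of 7 markers of glia and Schwann cells. The keratin genes Krt14 (2.5 to 13 over all arrays), Krt5 (3 to 13.4) and Krt15 (0.6 to 4.1) were too dim to be tested. The epithelial markers Cdh1 and Trp63 were not among the risers. Cdh1 had 174, 162 and 175 on GD12 and 150, 213 and 149 on GD14. Trp63 had 122, 126 and 104 on GD12 and 115.5, 94.5 and 93.1 on GD14. In whole tissue, more cells of a type and more RNA per cell cannot be told apart, and the part of these cells in the Ndrg1 result was not tested.

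The 5 single-symbol probe sets most like Ndrg1 160464_s_at over the 9 arrays belonged to Hspa1b (Pearson r of log2 values 0.979), which encodes an inducible HSP70 chaperone, Tapbp (0.977), which encodes tapasin of antigen loading, Cav1 (0.976), the caveolar coat protein, Fkbp11 (0.972), a prolyl isomerase of the secretory pathway, and Ctsc (0.972), a lysosomal protease. The other Ndrg1 probe set had r = 0.933 and ranked 74. These values describe a course over the 3 days more than agreement between arrays of a day: after the day means were removed, r was 0.77 for Hspa1b, 0.63 for Tapbp, 0.28 for Cav1, 0.10 for Fkbp11 and 0.59 for Ctsc, and 0.16 for the other Ndrg1 probe set. Cav1 went from 115 ± 4.48 through 269 ± 5.58 to 520 ± 52.0 and Fkbp11 from 77.6 ± 7.57 through 176 ± 9.92 to 312 ± 9.17 (SD, n = 3 each).

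Between GD12 and GD14, 3 of the 11 tested member probe sets rose and 0 fell, namely both of Ndrg1 and that of Aldoc; in all tested probe sets 4.3% passed, of which 3.24% of all rose and 1.06% fell. The count was 2 without the third arrays and 1 without GD14 replicate 1. From GD12 to GD13, 0 of 11 passed in limma (3 at an unadjusted p under 0.05), where 0.644% of all tested probe sets passed (0.569% higher and 0.0751% lower) and 11% did so unadjusted. The days did not overlap, with GD13 higher, in 3 of the 11, against 10.1% of all higher and 8.39% lower. From GD13 to GD14, 0 of 11 passed (2 unadjusted), against 0.0429% of all (0.0322% higher and 0.0107% lower) and 7.18% unadjusted. The days did not overlap, with GD14 higher, in 2 of the 11, against 7.13% of all higher and 5.88% lower. For the difference between the second and the first step, 0 of 11 passed (1 unadjusted, Aldoc), as did 0 of all 9316 (453 or 4.86% unadjusted). The median log2 difference from GD12 to GD14 was 0.18 over the 11 member probe sets and -0.02 over all tested. The member median was -0.03 without GD12 replicate 2 and 0.35 without GD12 replicate 3.

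**Figure D2:**
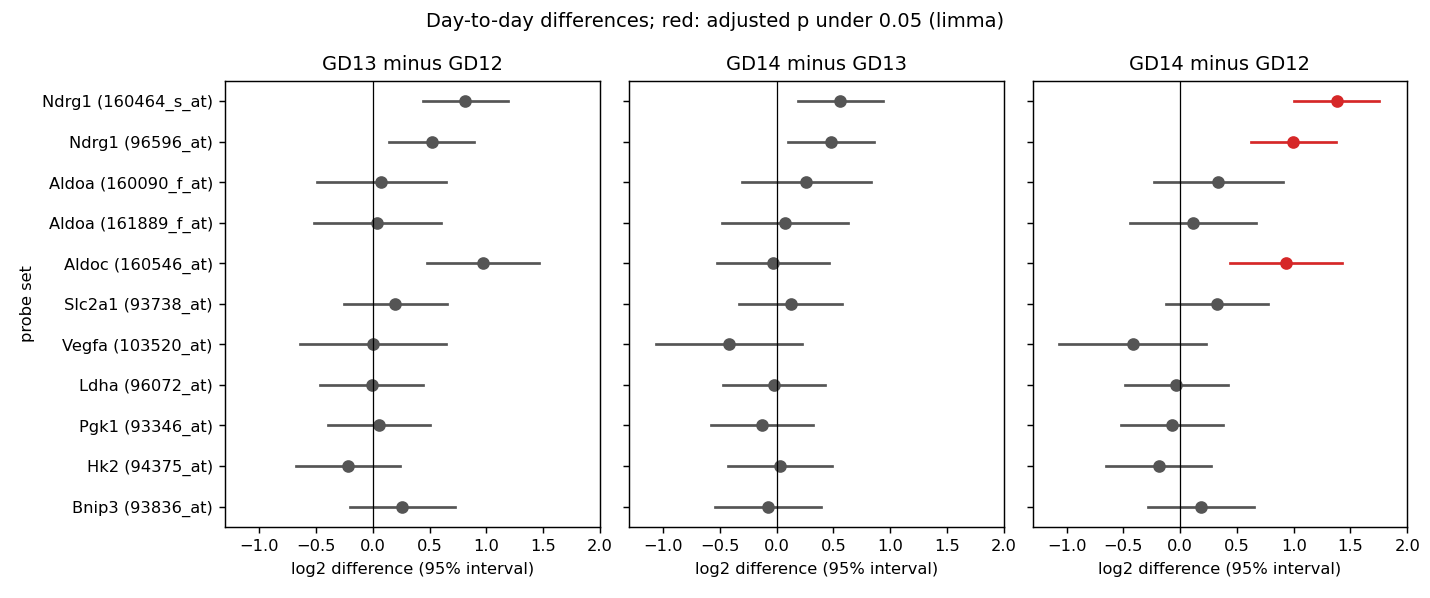
Log2 differences of the 11 tested probe sets for each pair of days, with 95% intervals from limma; red marks an adjusted p under 0.05. The red points are Ndrg1 (1.38 and 0.997) and Aldoc (0.93) for GD14 minus GD12.

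Fructose-bisphosphate aldolase, which cleaves the 6-carbon sugar of glycolysis into triose phosphates, was measured in its A form, which is that of muscle and most embryonic tissue, and its C form, which is that of brain. Aldoc had intensities of 34.7, 40.4 and 60.4 on GD12, 86.9, 102 and 78.9 on GD13, then 92.3, 75.5 and 93.3 on GD14. All arrays of GD13 and GD14 were above all arrays of GD12, and those of GD13 and GD14 overlapped. The mean went from 45.2 ± 13.5 on GD12 to 89.3 ± 11.8 on GD13 and 87.0 ± 10 on GD14 (SD, n = 3 each). The GD14 level was 1.91-fold that of GD12 (95% interval 1.36 to 2.69; log2 0.93, SE 0.22, limma adjusted p = 0.0494). This call lies at the threshold: it did not hold in 16 of 21 alternatives, among them the replicate number as a block (adjusted p = 0.0555), the actin ratio as a covariate (0.0764), median scaling (0.0767), omission of the third arrays (log2 1.096, adjusted p = 0.0523) and omission of GD14 replicate 1 (0.159). Omission of GD12 replicate 3 was the one single-array omission that kept it (adjusted p = 0.0211). The log2 difference stayed between 0.77 and 1.15 throughout.

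The first daily step of Aldoc was 0.97 (95% interval 0.47 to 1.46, adjusted p = 0.115) and the second -0.03 (-0.53 to 0.46, adjusted p = 0.990). The second step minus the first was -1.001 (unadjusted p = 0.0265, limma adjusted p = 0.957), so a difference between the steps was not shown. Within replicate numbers 1, 2 and 3 the GD14 minus GD12 difference was 1.34, 0.85 and 0.60. Of 12 tested neuronal markers 0 rose and 1 fell from GD12 to GD14 in limma (5 at an unadjusted p under 0.05). The part of neurons in the Aldoc result was not tested.

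Aldoa had 2 probe sets of the _f_at kind, whose probes the array maker marks as shared by similar sequences, so their signal may hold more than 1 transcript. The probe set 160090_f_at had 1050.3, 1003 and 1110 on GD12, 1002, 886 and 1538 on GD13, then 1184, 1113 and 1788 on GD14. Its GD14 arrays were all above its GD12 arrays, as was the case for 4 of the 11 member probe sets and 12.1% of all. The GD14 minus GD12 difference of 0.34 (95% interval -0.23 to 0.91) did not pass (limma adjusted p = 0.560), although with the actin ratio as a covariate it was 0.61 and passed (adjusted p = 0.0438), the one of 21 alternatives in which it did. It was 0.12 without GD14 replicate 3 and 0.16 without the third arrays. The probe set 161889_f_at had means of 576 ± 197 and 604 ± 87.4 (SD, n = 3 each) and a difference of 0.11 (-0.45 to 0.67, adjusted p = 0.875), which was -0.10 without GD12 replicate 2, 0.37 without GD12 replicate 3 and 0.50 without the third arrays, and passed in 0 of 21 alternatives. The 2 probe sets differed in their high arrays: on GD14 the third was the highest of its day at 160090_f_at and the lowest, at 503, at 161889_f_at.

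The genes of glucose entry and of its first reaction did not pass in any comparison. Slc2a1, the glucose transporter GLUT1, had 131, 110.0 and 103 on GD12, 132, 111 and 154 on GD13, then 139, 120 and 177 on GD14. Arrays of the 3 days overlapped, and the GD14 minus GD12 difference was 0.32 (95% interval -0.13 to 0.77, limma adjusted p = 0.461), an interval of 0.914 to 1.71 as a ratio of GD14 to GD12. Within replicate numbers it was 0.08, 0.12 and 0.76, and 0.10 without the third arrays. Hk2, the hexokinase that traps glucose in the cell and can dock on mitochondria, had 142, 144 and 132 on GD12, 106, 97.7 and 161 on GD13, then 114, 113 and 139 on GD14 at the probe set 94375_at. The difference was -0.19 (-0.65 to 0.27, adjusted p = 0.704), and its GD13 mean of 122 ± 34.0 (SD, n = 3) included the third array at 161. A dimmer probe set of Hk2 lay between 0.4 and 11.1 on the 9 arrays, was under the filter and was not tested.

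Pgk1 and Ldha act late in the pathway: phosphoglycerate kinase makes the first ATP of the payoff steps, and the A subunit of lactate dehydrogenase favours the formation of lactate. Ldha had 2979, 2806 and 3581 on GD12, 2844, 2721 and 3783 on GD13, then 2899, 2620.4 and 3672 on GD14. Its day means were 3122 ± 407, 3116 ± 581 and 3064 ± 545 (SD, n = 3 each), so the SD within a day exceeded the distance between any 2 day means. The GD14 minus GD12 difference was -0.03 (95% interval -0.49 to 0.42, adjusted p = 0.956). Pgk1 had 1106, 1083 and 1399 on GD12, 1297, 1063 and 1362 on GD13, then 1199, 908 and 1324 on GD14, with a difference of -0.07 (-0.52 to 0.38, adjusted p = 0.900). As ratios of GD14 to GD12, the intervals ran from 0.713 to 1.34 for Ldha and from 0.697 to 1.30 for Pgk1. These intervals come from the fit without replicate numbers. Within replicate numbers 1, 2 and 3 the log2 difference was -0.04, -0.10 and 0.04 for Ldha and 0.12, -0.25 and -0.08 for Pgk1.

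Vegfa and Bnip3 are targets of the hypoxia response outside glycolysis. Vegfa, which drives the growth of blood vessels, had 34.1, 39.5 and 33.3 on GD12, 31.6, 24.3 and 57.7 on GD13, then 21.8, 24.3 and 32.3 on GD14. The GD14 arrays were all under the GD12 arrays, as for 10.3% of all tested probe sets, and the difference of -0.42 (95% interval -1.07 to 0.23) did not pass (limma adjusted p = 0.512). The first step of Vegfa was 0.00084 and turned to -0.33 without GD13 replicate 3 and -0.37 without the third arrays; neither passed (adjusted p = 0.575 and 0.390). Bnip3, a mitochondrial outer membrane protein of mitophagy and cell death, had 95.1, 66.0 and 112 on GD12, 95.9, 124 and 104 on GD13, then 101, 101 and 102 on GD14. Its difference of 0.18 (-0.28 to 0.65, adjusted p = 0.727) lay within the spread of the GD12 arrays and was -0.03 without GD12 replicate 2.

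Several members had their highest signal of a day on the third array. Of the 11 tested probe sets, 7 did so on GD12, 8 on GD13 and 8 on GD14, against 37.4%, 37.5% and 34.0% of all tested probe sets. On all 3 days this held for 3, namely Ldha, Pgk1 and Aldoa 160090_f_at, and for 11.8% of all tested. On the log2 scale, the third array minus the mean of the other 2 was 0.31, 0.44 and 0.41 for Ldha and 0.35, 0.21 and 0.34 for Pgk1 on GD12, GD13 and GD14. It was 0.11, 0.71 and 0.64 for Aldoa 160090_f_at. The largest single value was 0.98, of Vegfa on GD13. For Ndrg1 160464_s_at it was 0.11, 0.14 and -0.38.

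Gapdh, the glycolytic dehydrogenase that comes just before Pgk1, was read here through the array maker's control probe sets, which were not part of the test. Its middle probe set had 5529, 5344 and 6333 on GD12, 4183, 3813 and 5797 on GD13, then 3619.6, 3121 and 6499 on GD14. On the other 2 arrays of each day the signal was lower on each later day, while the third array stayed high. At the 5' probe set the third array was above the mean of the others by 0.51, 0.74 and 1.23 (log2) on GD12, GD13 and GD14, and at the 3' probe set by 0.11, 0.26 and 0.64. The third arrays had the lowest 3' to 5' ratio of Gapdh, at 0.833, 0.802 and 0.851 against 1.09 to 1.29 on the others, and the part of this in the signal of Ldha, Pgk1 and Aldoa was not tested.

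**Figure D3:**
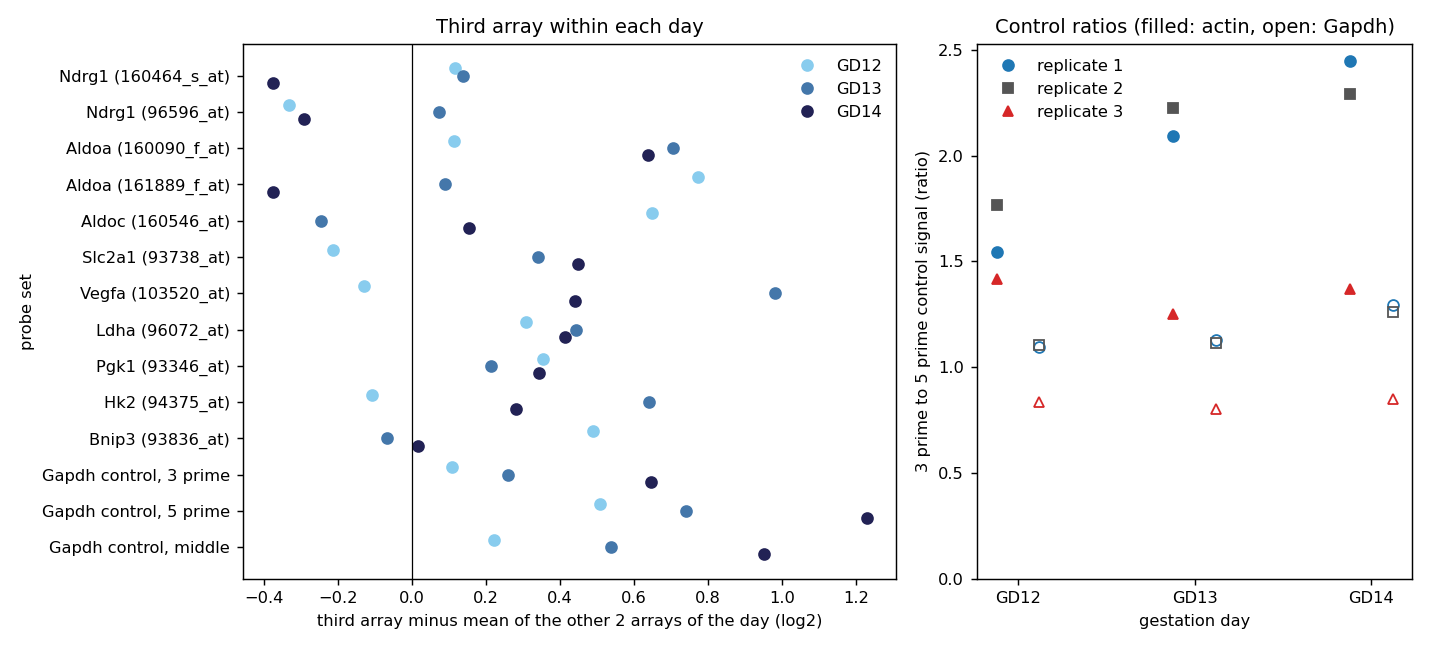
Left, the third array minus the mean of the other 2 arrays of the same day (log2) for the 11 tested probe sets and the 3 Gapdh control probe sets, by day; right, the ratio of 3' to 5' control signal of actin (filled) and Gapdh (open) on each array. Ldha, Pgk1, Aldoa 160090_f_at and Gapdh lie right of 0 on all days, and the third arrays have the lowest ratios of each day.

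Of the other enzymes of glycolysis, 11 were tested, of which 1 rose from GD12 to GD14 and 0 fell, with a median log2 difference of 0.11, where 248 of all 6861 tested genes rose and 67 fell (median -0.01). The riser was Eno3, the muscle form of enolase, which went from 135 ± 16.3 through 185 ± 36.2 to 240.1 ± 27.6 (SD, n = 3 each; log2 0.82, SE 0.19, adjusted p = 0.0436). Its call did not hold in 12 of 21 alternatives; GD13 replicate 3 was the one array that could be left out without ending it, and the highest adjusted p, 0.131, came without GD12 replicate 2. Of 14 tested skeletal muscle markers 6 rose and 0 fell over the same days, and the part of muscle in the Eno3 result was not tested. The triose phosphate isomerase gene Tpi1 (log2 0.11, adjusted p = 0.809), the mutase gene Pgam1 (0.15, adjusted p = 0.737), the pyruvate kinase gene Pkm (-0.30 and 0.18 at its 2 probe sets, adjusted p = 0.547 and 0.838) and Ldhb, the lactate dehydrogenase subunit of oxidative tissue (-0.35, adjusted p = 0.320), did not pass. The phosphofructokinase gene Pfkp had the largest difference of the 11 (log2 1.08, SE 0.29) and did not pass either (limma adjusted p = 0.0834). At an unadjusted p under 0.05 there were 2 of the 11, against 18.7% of all tested genes. The third array was the highest on all 3 days for 4 of the 11 enzymes (Eno3, Pfkl, Pgam1 and Pkm), against 10.9% of all tested genes. Among 22 genes of glucose transport, side branches and regulation 0 rose and 0 fell in limma (1 at an unadjusted p under 0.05, median 0.09), and among 22 genes of the tricarboxylic acid cycle, the mitochondrial continuation of the pathway, and of related enzymes, likewise 0 and 0 (3 unadjusted, median -0.05). This last list also held the cytosolic enzymes Aco1, Idh1, Mdh1 and Me1.

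Of 17 tested genes of oxygen sensing 1 fell and 0 rose from GD12 to GD14 at their brightest probe sets, with a median of -0.15; over all 22 tested probe sets of these genes 2 fell, of Siah1a and Eloc. Hif1a, the oxygen-regulated subunit, had 2866 ± 135 on GD12, 2491 ± 117 on GD13 and 2482 ± 193 on GD14 (SD, n = 3 each) at its brighter probe set, a difference of -0.21 (95% interval -0.52 to 0.10, adjusted p = 0.493). Its level of RNA says little of its protein, which is mainly regulated by degradation. Epas1, which encodes HIF2A, had 24.4 ± 5.27 and 36.7 ± 4.91 (SD, n = 3 each; log2 0.55, adjusted p = 0.202), the prolyl hydroxylase gene Egln1 274 ± 19.9 and 287 ± 23.2 (SD, n = 3 each; 0.07, adjusted p = 0.863), and Arnt (-0.51, adjusted p = 0.684, and -0.05, adjusted p = 0.953, at its 2 probe sets) and Vhl (-0.53, adjusted p = 0.712) did not pass either. Siah1a, whose probe set fell, encodes a ubiquitin ligase that acts on prolyl hydroxylases. It had 217, 199 and 209.8 on GD12, 184, 156 and 176 on GD13, then 137, 134 and 128 on GD14 (log2 -0.64, SE 0.14, adjusted p = 0.0342). Its call too ended in 12 of 21 alternatives, among them the omission of any array but GD13 replicate 3, with the highest adjusted p, 0.126, without GD12 replicate 1. The probe sets of Eloc, elongin C of the VHL ubiquitin ligase, disagreed: the brightest had a log2 difference of 0.02 (adjusted p = 0.988), another -0.38 (adjusted p = 0.357), and the one that fell -0.90 (adjusted p = 0.0185; named after its values were seen).

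Of 39 other tested targets of the hypoxia response, 6 rose and 1 fell from GD12 to GD14 at their brightest probe sets, where 3.61% of all genes rose and 0.977% fell. The median was 0.38 against -0.01 for all genes, and 0.31 over all 54 tested probe sets of these targets. In limma 16 of the 39 had an unadjusted p under 0.05, against 18.7% of all tested genes. Ndrg2, Ndrg4 and Gbe1 of this list also stood in other lists. The risers with the smallest adjusted p were Lox, the collagen cross-linking oxidase (log2 1.99, SE 0.20, adjusted p = 0.00109), Igfbp3, a carrier of insulin-like growth factors (1.20, SE 0.20, adjusted p = 0.0123), P4ha1, a prolyl hydroxylase of collagen chains (0.96, SE 0.16, adjusted p = 0.0131), and Ier3, a survival factor of the immediate early class (1.05, SE 0.20, adjusted p = 0.0226). Lox and P4ha1 act on collagen, as does P4ha2, a further riser whose probe sets had 0.83 and 0.77 (adjusted p = 0.0282 and 0.0453; named after its values were seen). Lox had 186, 175 and 135 on GD12, 239, 323 and 274 on GD13, then 782, 668 and 550.1 on GD14, without overlap between days. P4ha1 had 178, 221 and 171 on GD12, 263, 234 and 249 on GD13, then 424, 349 and 341 on GD14, also without overlap. Over the same days 4 of 5 tested bone markers rose, among them the collagen gene Col1a1 with 1158, 1175 and 859.8 on GD12 against 6321, 5541 and 5904 on GD14, and the part of bone in these results was not tested. The remaining riser was Zfp36, which encodes an RNA-binding protein that speeds mRNA decay (1.03, adjusted p = 0.0273; also named after its values were seen). The one that fell was Cxcl12, a chemokine (-0.75, adjusted p = 0.0255), whose other 2 probe sets had 0.56 and -0.70 and did not pass (adjusted p = 0.299 and 0.175). Other probe sets of Lox (0.33, adjusted p = 0.817) and Igfbp3 (0.65, adjusted p = 0.558) did not pass either.

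Without the third arrays the call of Lox held and those of Igfbp3 (adjusted p = 0.0635), P4ha1 (0.0792), Ier3 (0.0792), P4ha2 (0.0808 and 0.0878), Zfp36 (0.105) and Cxcl12 (0.0663) did not. When single arrays were left out, Lox passed each time and Igfbp3 each time but without GD14 replicate 1 (0.0574). The call of P4ha1 ended without GD12 replicate 1 (0.0577) or GD14 replicate 1 (0.062). That of Ier3 ended without GD12 replicate 2 or 3 or GD14 replicate 1 or 2 (0.0703 to 0.0884). Those of P4ha2, Zfp36 and Cxcl12 ended without any one of the GD12 arrays, without GD14 replicate 1 or 2, and in part without others. The target Adm, a vasodilator peptide gene, had 6.50 ± 3.64 at GD12 against 4.07 ± 1.40 at GD14 (SD, n = 3 each), under the filter intensity, and was not tested.

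**Figure D4:**
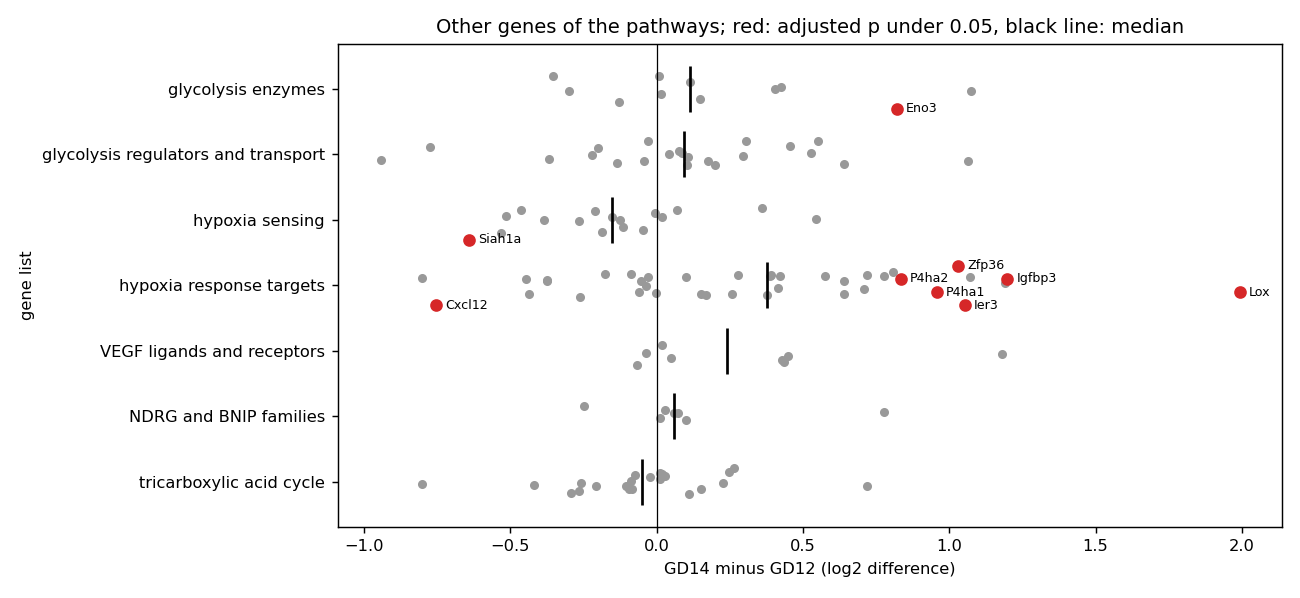
Log2 difference from GD12 to GD14 of each tested gene in 7 lists of related genes (1 point a gene, at its brightest probe set; vertical scatter has no meaning); red marks an adjusted p under 0.05 and the black line the median. The red points of the hypoxia response targets reach from -0.75 (Cxcl12) to 1.99 (Lox).

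Vessel growth receptors did not pass. Among 8 tested VEGF ligands and receptors other than Vegfa, 0 rose and 0 fell in limma (3 at an unadjusted p under 0.05, where 18.7% of all tested genes were; median 0.24). Kdr, the main VEGF receptor of endothelium, had 62.2 ± 6.16 at GD12 against 63.0 ± 5.26 at GD14 (SD, n = 3 each; log2 0.02, 95% interval -0.38 to 0.42, adjusted p = 0.976), and Flt1, a decoy receptor, had 0.43 and -0.21 at its 2 probe sets (adjusted p = 0.504 and 0.892). The summed signal of 11 endothelial markers was 1436 to 1507 on GD12 and 1687 to 1821 on GD14, and 0 of the 11 passed in limma, also at an unadjusted p under 0.05. Among 7 tested relatives of Ndrg1 and Bnip3, 0 rose and 0 fell in limma (1 at an unadjusted p under 0.05, median 0.06). In the 7 lists of related genes, 0 genes passed in limma from GD12 to GD13 or from GD13 to GD14; at an unadjusted p under 0.05, the targets of the hypoxia response had 10 and 3 of 39 in these steps and each other list 0 to 2 and 0 to 3, against 11.4% and 7.42% of all tested genes. Gpi1, Bnip3l and Egln3 had no single-symbol probe set and were not analysed here.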

How the data were processed

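Orofacial RNA of 3 gestation days was measured on 9 arrays. The authors deposited 1 linear intensity per probe set and array; the software is not given in the sources used here. Of 12488 probe sets, 66 controls were left out. Gene symbols came from the array annotation, and RefSeq gene IDs (GRCm38.p6) changed 0 of them. To each value 3 was added, near the 10th percentile of 3.1, before taking log2. Probe sets whose mean lay at or under the 25th percentile (intensity 10.4) were left out, leaving 9316. limma 3.58.1 in R 4.3.3 was fitted to all 9 arrays as 3 day means (6 residual and 2.85 prior degrees of freedom), with Benjamini-Hochberg adjustment and calls at adjusted p under 0.05; fold changes and 95% intervals come from that fit and understate the change of dim probe sets. The number of arrays, 3 a day, limits the precision. A gene in a list stood for its brightest tested probe set. The fit was also run on simulated arrays. These were drawn independently of each other, so the run does not cover the correlation of arrays that share a replicate number.

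Named were all members, up to 4 passing genes of each list by smallest adjusted p, and a fixed set of pathway genes. Members and lists were chosen with earlier results of these data known. Residuals of arrays that shared a replicate number correlated at 0.19 to 0.42 between days, so the numbers pair the arrays; the unblocked fit was kept as planned, and blocked values stand where a call changed. Alternatives covered scaling, the added value, filters, variance models, array weights, the block, the actin ratio, the groups fitted and omission of each array. Python 3.11.15 drew the plots.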

Additional observations from a re-analysis of the deposited data

How the results depend on the processing

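Among the members, the GD14 minus GD12 rise of Ndrg1 held in direction in every alternative run, and the call of Aldoc was the one that most often did not hold. The number of member probe sets called from GD12 to GD14 was 3; it lay between 1 and 3 when single arrays were left out, and was 1 with only the groups compared. From GD12 to GD13 it was 0; it was 2 with the filter at the median, 1 with trend and robust variances, 2 with array weights, and 0 to 1 when single arrays were left out. Ndrg1 160464_s_at passed for that step with the first 3 of these (adjusted p = 0.0311, 0.031 and 0.0224), and Aldoc with the filter at the median, array weights and without GD12 replicate 3 (0.0481, 0.0214 and 0.0495). Over all probe sets, 401 were called from GD12 to GD14; the count was 617 with array weights, 621 with the replicate block, which kept 387 of the 401, 225 with only the groups compared, and 176 to 391 with single arrays left out, lowest without GD14 replicate 1. From GD12 to GD13, 60 were called; the count was 35 without a filter, 94 with the filter at the median, 115 with trend and robust variances, 201 with array weights, 34 with only the groups compared, 10 without the third arrays, and 17 to 59 with single arrays left out. From GD13 to GD14, 4 were called; the count was 2 with quantile normalization, with an added value of 1 and with only the groups compared, 16 with an added value of 11, 0 without a filter, 19 with the filter at the median, 26 with trend and robust variances, 11 with array weights, 0 without the third arrays, and 0 to 4 with single arrays left out. The share of these calls that were higher moved from 75% (3 of 4) to 50% (1 of 2) with quantile normalization. For the second step minus the first, 0 were called; the count was 2 with the filter at the median and with trend and robust variances, 1 with array weights and 1 with the replicate block. The block ended the call of Aldoc and of no other member. The cause of these changes was not tested. Omission of the third arrays was added after the data were seen. A dim probe set, such as that of Vegfa, has little signal over background, and Vegfa had no value with the filter at the median.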
